A study of Mus musculus with 2 samples.

Results

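Classical monocytes, the blood-derived monocytes that carry Ly6c2, were described in single-cell RNA libraries of mouse kidney as 715 of 22217 kept cells. A kept cell had 500 or more unique molecular identifiers (UMIs, each counting 1 captured RNA molecule), 200 or more genes, and at most 50% of its UMIs from mitochondrial genes. A kept cell was taken as a classical monocyte when it held 2 or more UMIs of Ly6c2, 2 or more of Ccr2, Chil3, F13a1, Vcan and Fn1 together, fewer than 10 of C1qa, C1qb and C1qc together, none of Cd3d, Cd3e, Cd3g or Cd79a, and fewer than 2 of Mki67 and Top2a together. These 15 genes selected the cells, so their levels are given only as a description. The control library held 31 such cells and the library of folic acid (FA) nephropathy held 684.

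Classical monocytes are made in the bone marrow and leave it through the chemokine receptor Ccr2. They enter injured tissue, where they can persist for a time as monocytes or become macrophages. In the kidney they are known as the main circulating source of macrophages that appear after tubular injury, while patrolling monocytes, which carry Ace and Treml4, stay mostly inside vessels.

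Both libraries came from kidney of wild-type mice, 1 labelled control and 1 labelled FA-induced nephropathy, a toxic tubular injury that follows a high dose of this vitamin. The series concerns the pore-forming gasdermins Gsdmd and Gsdme, but neither is deleted in the mice measured here. The dose, the time after FA, the age of the mice and the number of mice pooled in a library were not given in the sources used here. With 1 library per group there is no test: each ratio below compares 2 libraries, and each interval in brackets is a 95% interval for counting error only.

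The deposited barcodes held 63646459 UMIs in the control library and 84138607 in the FA library. The monocytes held 199504 UMIs in control and 4656670 in FA, with medians of 6136 and 6461.5 UMIs and of 2292 and 2205.5 genes per cell. Of the sex-linked RNAs, the female-typical Xist summed to 0 UMIs over control and 2885 over FA monocytes and the male-specific Ddx3y to 13 and 0, so the libraries differ in sex and the sex of the mice and the treatment cannot be told apart. The libraries shared 54 barcode sequences, and 1 of the monocytes had such a barcode.

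Monocytes made up 0.492% of kept control cells (0.335 to 0.698) and 4.30% of kept FA cells (3.99 to 4.62). Among kept cells with a UMI of the leukocyte gene Ptprc, 31 of 1891 were monocytes in control (1.64%, 1.12 to 2.32) and 668 of 7798 in FA (8.57%, 7.95 to 9.21). The share of monocytes was thus higher in FA over either denominator, and the counting intervals did not overlap. The denominators also differed between the libraries: proximal tubule cells, counted by Lrp2 and Slc34a1 without Ptprc, were 37.2% of kept control cells and 18.1% of kept FA cells. How cells were freed and captured sets such shares, and its part was not tested.

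**Figure D1:**
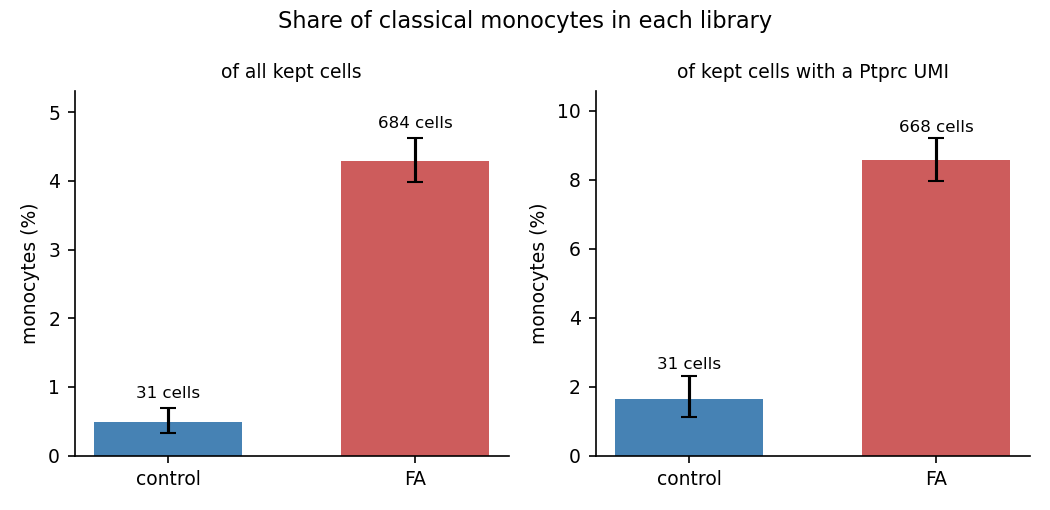
Classical monocytes as a share of kept cells (left) and of kept cells with a Ptprc UMI (right), in percent, with exact binomial 95% intervals and the number of cells above each bar. The FA bars, 4.30% and 8.57%, stand above the control bars, 0.492% and 1.64%, and the intervals do not meet.

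The selected cells were checked against monocyte genes that had no part in selecting them. Lyz2, the lysozyme gene of monocytes, macrophages and neutrophils, was detected in 25 of 31 control cells and in 91.5% of FA cells. It was detected in 0.990% and 2.34% of B cells of the same libraries (median UMIs per cell 2599 and 2161.5), which gauge the RNA that is free in the droplets. Plac8, a marker of Ly6c2-high monocytes, was detected in 30 of 31 control cells and 97.1% of FA cells, but B cells also hold it. Summed over the 20 classical monocyte genes outside the selection, the median cell held 557 UMIs per 10000 in control and 493 in FA, with a range from 7.79 to 907 and from 0 to 1019.

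Not every selected cell carried these genes. Of the control cells 7 (22.6%, 9.59 to 41.1) and of the FA cells 61 (8.92%, 6.89 to 11.3) had fewer than 3 Lyz2 UMIs, and 6 and 58 of them had none, although their median UMIs per cell were 5619 and 6294. In FA these 61 cells held Cd74, the invariant chain of MHC class II, at 11656 CPM (UMIs of the gene per 1000000 UMIs of the summed cells) against 1961 in the other 623 cells, and the haptoglobin gene Hp at 18.7 against 1623 CPM. Siglech, a receptor of plasmacytoid dendritic cells, stood at 1645 CPM in the 7 control cells and at 0 in the other 24. In the 61 FA cells, Cd7 was detected in 30, the NK cell receptor gene Klrd1 in 31, the dendritic cell receptor gene Flt3 in 20, Cd209a in 16 and Siglech in 13. Other genes of NK and T cells were rare in them, with Nkg7 and Gzma each in 3 and Ccl5 in 4. Of further dendritic cell genes, Kmo was detected in 30 and Bcl11a in 24. Lyz2 at 3 or more UMIs was thus found in 24 control and 623 FA cells. The other cells went against the label of monocyte, many with genes of dendritic cells and few with Nkg7, Gzma or Ccl5.

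Markers of other cell types were counted in each selected cell at 2 or more UMIs per set. Siglech and Ccr9 of plasmacytoid dendritic cells reached this in 5 of 31 control and 11 of 684 FA cells, and Cd209a, Flt3, Xcr1 and Clec9a of conventional dendritic cells in 8 and 20. Csf3r, Cxcr2 and Retnlg of neutrophils reached it in 5 and 40, and Plvap, Emcn, Flt1 and Kdr of endothelium in 3 and 18. Sets for NK and T cells and for B and plasma cells each reached it in 1 control cell, and in 10 and 11 FA cells. Any of these 6 sets was reached in 15 control cells (48.4%, 30.2 to 66.9) and 100 FA cells (14.6%, 12.1 to 17.5). Ace and Treml4 of patrolling monocytes were counted apart and reached 2 UMIs in 9 of 31 control and 120 of 684 FA cells. Counts for the lists of monocyte function below are therefore also given for the marker-free cells (16 control, 584 FA), a subset chosen after the data were seen, as were the Lyz2-positive cells (24 control, 623 FA). Ratios of single genes are given for these subsets where they crossed the 1.5-fold limit, and for other genes where shown.

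**Figure D2:**
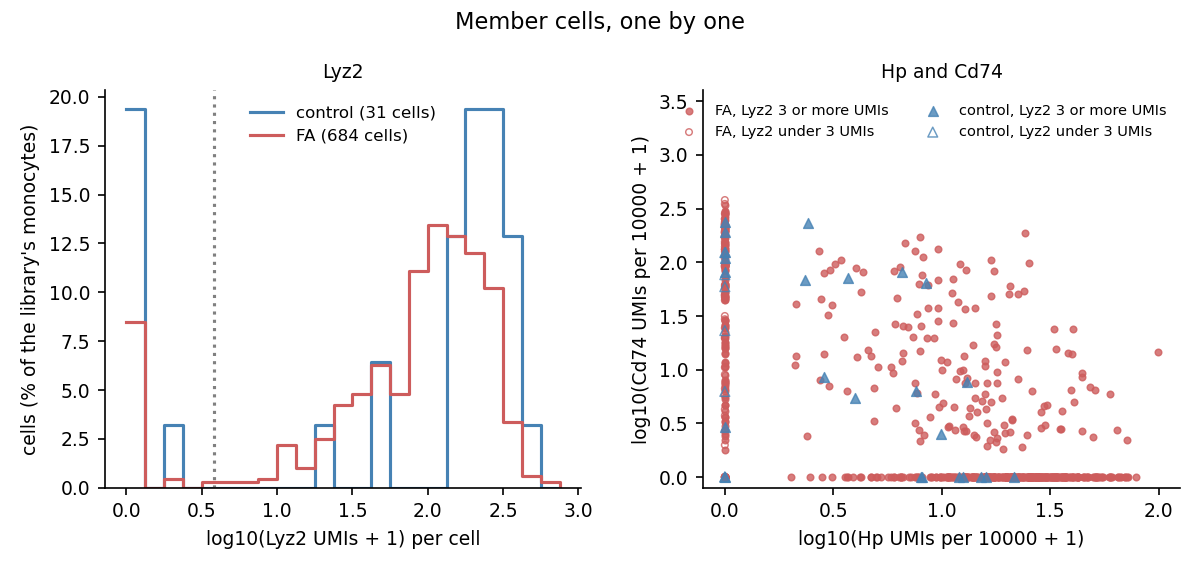
Each selected cell by its Lyz2 UMIs (left, share of the library's cells on a log10 axis, with the limit of 3 UMIs dotted) and by its Hp and Cd74 UMIs per 10000 (right, log10 axes). A separate group at 0 Lyz2 UMIs holds 6 control and 58 FA cells. Open symbols are the 7 control and 61 FA cells with fewer than 3 Lyz2 UMIs, and Hp was found in 0 and 1 of them.

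The genes of the selection differed between the libraries in these ways. The median cell held 4 Ly6c2 UMIs in control and 9 in FA, with highest values of 34 and 61. For Ccr2 the medians were 6 and 4.5, for Chil3 5 and 7, for F13a1 3 and 1, for Fn1 0 and 1 and for Vcan 0 and 0. Ly6c2 is uncertain as a name, because the transcripts of Ly6c2 and the endothelial gene Ly6c1 share 802 of 822 aligned bases (97.6%) and reads can be split between them. A Ly6c2 UMI was found in 4.95% and 6.43% of B cells and in 0.214% and 0.764% of proximal tubule cells of control and FA.

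At the threshold, cells just inside the selection resembled those just outside it in FA. The 145 FA cells with 1 Ly6c2 UMI that met every other criterion held Lyz2 at 4477 and H2-Ab1 at 5633 CPM. The 68 FA cells with 2 Ly6c2 UMIs, just inside, held 6608 and 4018 CPM, and the 326 with 10 or more held 23604 and 235 CPM. At the upper C1q limit, 9 FA cells with 7 to 9 C1q UMIs were inside and 13 with 10 to 12 were outside, and Apoe stood at 5287 and 7406 CPM. In FA the step at 2 Ly6c2 UMIs is thus a cut through a gradient in which the Ly6c2-poor end was low in Lyz2 and high in MHC class II. Control did not show this for H2-Ab1, which stood at 802, 2823 and 2304 CPM with 1, 2 and 10 or more Ly6c2 UMIs. Lyz2 stood at 22498, 23278 and 47206 CPM there, over only 15, 10 and 5 cells.

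Levels in the 2 libraries were compared over 9678 genes that held 20 or more UMIs in the monocytes and did not select them. Of these, 1607 (16.6%) were 1.5-fold or more higher in FA and 2672 (27.6%) were 1.5-fold or more lower. With the counting interval also on the same side of 1, 511 were higher (5.28%) and 1004 lower (10.4%), and "higher" and "lower" are used in this sense for the gene groups below. In the marker-free cells the same count gave 358 higher (3.92%) and 605 lower (6.63%) of 9128 genes. These shares are the ones that stand beside every list count in marker-free cells below. In both sets of cells 275 genes were higher and 408 lower, and 3 genes took opposite sides. A gene with 0 control UMIs entered at its lower bound, the ratio against 3 UMIs in the control sum. The median log2 ratio over the 9004 genes with a ratio or such a bound was -0.15, and it was 0.01 over the 2773 genes with 250 or more UMIs. Of those 2773 genes, 532 were 1.5-fold or more higher and 390 lower, counted without the interval. The shares over all genes thus depend on abundance, and the list counts below were not matched for it.

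The 12 highest ratios in FA were those of Ifi213, Saa3, Thbs1, Slfn4, Oasl1, Ifi206, Osm, Ifrd1, Tnip3, Ier3, Lrg1 and Cxcl2. They include interferon-stimulated genes (Ifi213, Ifi206, Slfn4, Oasl1), acute phase and granule genes (Saa3, Lrg1), a matrix protein (Thbs1), a cytokine (Osm), a neutrophil-attracting chemokine (Cxcl2) and a brake on NF-kB signalling (Tnip3). The 12 lowest included those of Siglech, Bcl11a, Tcf4, Irf8, St8sia4, Myl12b, Tmcc1, Rnase6, Mbnl1, Naaa and Mef2c. The first 4 of these are known from plasmacytoid dendritic cells, and their values with and without the cells with few Lyz2 UMIs are given below.

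**Figure D3:**
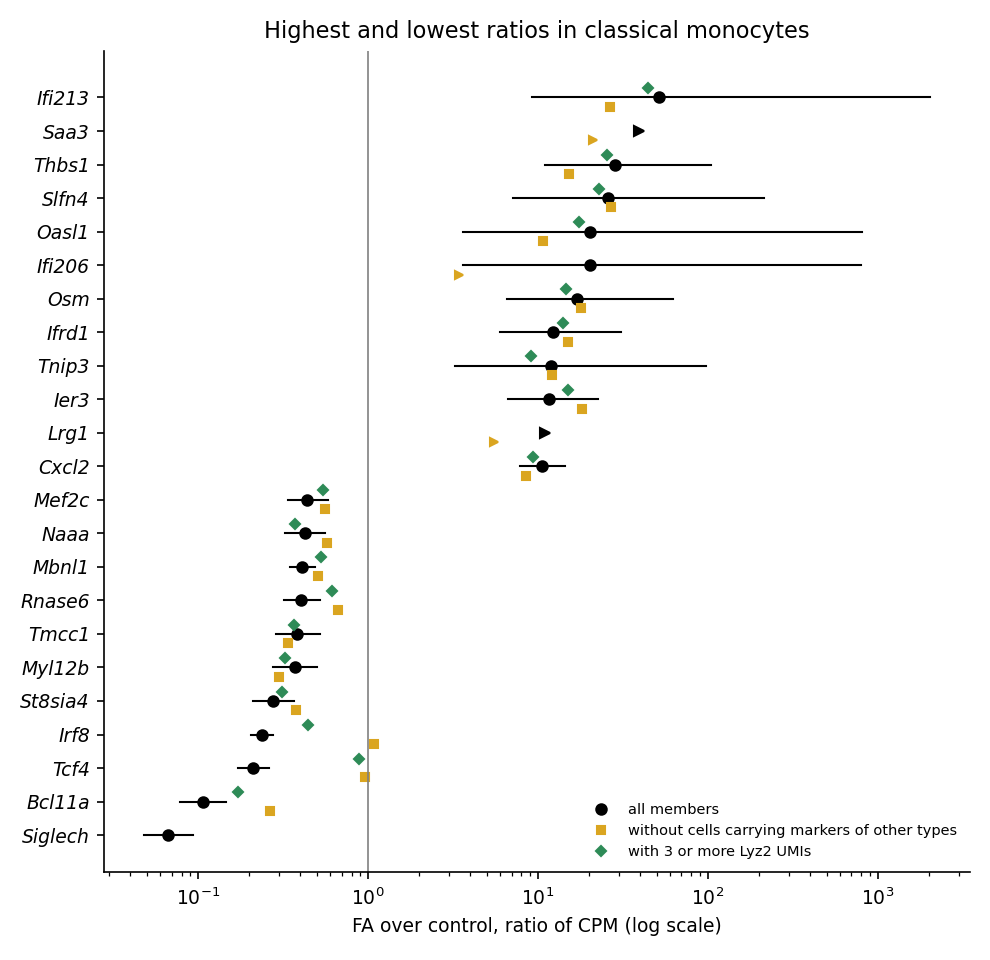
Ratio of CPM, FA over control, on a log axis for the 12 highest genes and the named lowest genes by the naming rule, with counting intervals for all selected cells and symbols for the 2 subsets. Triangles are lower bounds for genes with 0 control UMIs. Tcf4 and Irf8 move to 0.966 and 1.09 in the marker-free cells, and the highest genes stay above 1.

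Saa3 (chr7:46711998-46719615, RefSeq on GRCm38.p6, the assembly that mm10 names), which encodes an acute phase serum amyloid A protein, had 0 UMIs in the 31 control monocytes and 2743 in FA. For 0 of 31 control cells the exact upper limit on cells with a UMI is 11.2%, which is no limit on the cells that express the gene. Set to 3 UMIs, the control count allows a level of 15.0 CPM, against 589 CPM in FA. The FA level was thus at least 39.2-fold higher. Saa3 was detected in 31.0% of FA monocytes, or 17.1% (14.4 to 20.1) when every cell was thinned to 1000 UMIs. In FA it was detected in 3.53% of macrophages, 0.877% of B cells and 0.729% of proximal tubule cells. The 10% of FA monocytes richest in Saa3 held 77.9% of its UMIs, so the level rested on a minority of the cells.

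Thbs1 (chr2:118111876-118127133) encodes thrombospondin 1, a matrix protein that activates latent TGF-beta. It had 4 UMIs in control, all in 1 cell, and 2650 in FA, that is 20.1 and 569 CPM, a ratio of 28.4 (11.1 to 104). The ratio was 15.3 in marker-free and 25.4 in Lyz2-positive cells. Thbs1 UMIs were present in 48.8% of FA monocytes (26.3% after thinning, against 0 of 31 in control), in 11.4% of FA macrophages and 1.46% of FA B cells. Lrg1, a secreted glycoprotein of neutrophils and liver, had 0 UMIs in control and 771 in FA, at least 11-fold higher. Of FA monocytes 31.3% held it, and it stood at 2.62 CPM in FA macrophages.

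Other granule and alarmin genes of the neutrophil-like list were mostly higher. Of 17 measured genes, 9 were higher and 2 lower (median log2 ratio 0.99), where 5.28% and 10.4% of all genes were. In the marker-free cells 8 were higher and 3 lower of 16, where 3.92% and 6.63% of all genes were. Hp, which encodes the haemoglobin scavenger haptoglobin, stood at 461 CPM in control and 1476 in FA, a ratio of 3.20 (2.61 to 3.98). It was detected in 17 of 31 control and 72.7% of FA monocytes (35.5% and 56.7% after thinning), against 0.585% of FA B cells, and stood at 3.65 and 5.73 CPM in macrophages. Wfdc17, a small secreted inhibitor, was at 1002 and 1892 CPM (ratio 1.89, 1.64 to 2.18). Lcn2, the iron-binding lipocalin, had 0 control UMIs and was found in 22.5% of FA monocytes, at least 6.10-fold higher. Injured tubule also makes Lcn2: its level was 91.7 CPM in FA monocytes, 88.2 in FA proximal tubule cells, 39.6 in FA B cells and 12.3 in FA macrophages, so the part of free RNA in it was not tested. S100a8, the neutrophil calgranulin, had 405 UMIs in FA in only 16 cells (2.34%), and neutrophil markers were present in 40 FA cells. Its UMIs thus came from few cells, unlike those of Hp. Cybb, the catalytic subunit of the phagocyte NADPH oxidase, was lower, at 1619 and 1028 CPM (0.635, 0.567 to 0.713).

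Interferon-stimulated genes are switched on by type I and type II interferon through transcription factors that include STAT2 and IRF9. In the monocytes, 28 of 39 measured genes of this list passed the limit upward in FA and 0 downward, against 5.28% and 10.4% of all genes. The median log2 ratio was 1.19, against -0.15 over all genes. In the marker-free cells 25 of 38 were higher and 0 lower (1.42), and the Lyz2-positive cells gave a median of 1.22. The promoters of this list often held GAAANNGAA, the core of the element that IRF9 and its partners bind. Searched on both strands from 250 bases before to 50 bases after each annotated start, it was in 19 of 37 windows (51.4%) of the 31 of 40 list genes that RefSeq matched, and in 8.56% of all 32851 windows. Below are the 120 bases before a start of 5 genes. Isg15 and Ifit1 are shown because they hold 3 matches each in these bases. Ifi213 and Ifi206 are outside the list but among the 12 highest ratios. Slfn4, with the highest ratio of the list, holds none in its whole window. The start used for Ifi213 is an inner one, so part of its stretch, with the match, lies inside the gene span given further below. Capitals mark the matches, and the strand shown is the gene's own: Isg15 chr4:156200819-156200938 (minus strand), Ifit1 chr19:34640769-34640888 (plus), Ifi213 chr1:173599273-173599392 (minus), Ifi206 chr1:173491319-173491438 (minus) and Slfn4 chr11:83175066-83175185 (plus), from RefSeq on GRCm38.p6.
Isg15: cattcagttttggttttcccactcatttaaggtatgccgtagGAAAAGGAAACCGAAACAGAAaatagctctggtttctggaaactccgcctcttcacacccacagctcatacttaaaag
Ifit1: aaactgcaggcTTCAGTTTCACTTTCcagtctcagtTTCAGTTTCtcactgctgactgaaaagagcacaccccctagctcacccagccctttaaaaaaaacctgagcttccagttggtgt
Ifi213: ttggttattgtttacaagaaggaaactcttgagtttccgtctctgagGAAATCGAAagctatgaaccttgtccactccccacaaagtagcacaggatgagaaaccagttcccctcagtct
Ifi206: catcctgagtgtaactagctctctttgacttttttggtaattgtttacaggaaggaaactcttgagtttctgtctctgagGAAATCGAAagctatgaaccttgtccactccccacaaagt
Slfn4: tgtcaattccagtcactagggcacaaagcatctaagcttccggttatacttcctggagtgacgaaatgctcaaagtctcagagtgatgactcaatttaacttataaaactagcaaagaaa

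Isg15, a ubiquitin-like protein attached to other proteins in antiviral defence, had 16 UMIs in control and 2591 in FA. These are 80.2 and 556 CPM, a ratio of 6.94 (4.26 to 12.2), and the ratio was 6.97 in marker-free and 6.22 in Lyz2-positive cells. Cells with Isg15 were 9 of 31 in control and 80.1% in FA, against 9.94% of FA B cells. Ifit3, which binds foreign RNA with its relatives, was at 20.1 and 118 CPM (5.89, 2.29 to 21.7), and Ifit1 had 1 and 402 UMIs (17.2, 3.07 to 682). Irf7, the factor that drives later interferon production, was at 276 and 619 CPM (2.25, 1.72 to 2.99) and was detected in 91.4% of FA monocytes (43.0% after thinning, against 19.4% in control).

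Ifi213 (chr1:173566280-173599348) and Ifi206 (chr1:173468485-173491318) belong to a cluster of DNA-sensing paralogs whose reads can be split between copies, so their single-gene values are uncertain. Ifi213 had 1 control UMI and 1206 in FA, a ratio of 51.7 with an interval from 9.26 to 2042. Ifi204 of the same cluster, with more UMIs in control, was at 186 and 407 CPM (2.20, 1.59 to 3.13). Slfn4, a schlafen gene of myeloid cells, had 2 and 1205 UMIs (25.8, 7.13 to 213) and was detected in 58.6% of FA monocytes. Ifi27l2a, abundant in monocytes, was at 1799 and 5191 CPM (2.89, 2.60 to 3.21). Cxcl10, which attracts T cells, had 0 and 756 UMIs and was at least 10.8-fold higher, yet only 16.8% of FA monocytes held it. Its level of 162 CPM there stood beside 101 CPM in FA B cells, 176 in FA proximal tubule cells and 391 in FA macrophages.

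Some genes of the list did not reach the limit. Rsad2, an antiviral enzyme, was at 80.2 and 106 CPM (1.33, 0.808 to 2.34; 1.79 in Lyz2-positive cells). Bst2, which tethers virions and is also abundant in plasmacytoid dendritic cells, had a ratio of 0.918 (0.775 to 1.09), but 3.24 in marker-free and 2.47 in Lyz2-positive cells. Ifitm3 was at 4130 and 6297 CPM (1.53, 1.42 to 1.64), with ratios of 1.37 in marker-free and 1.33 in Lyz2-positive cells, under the limit. The summed level of the list was 9103 CPM in control and 18575 in FA monocytes, 4030 and 11640 in macrophages, and 1974 and 4772 in B cells. The list was thus at a higher summed level in FA in each of these 3 cell types, and whether the size differs between them was not tested.

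Chemokines were the list with the highest median log2 ratio, 1.61. Of 13 measured genes 9 were higher and 1 lower, where 5.28% and 10.4% of all genes were. In the marker-free cells 7 and 1 of 12 were (median 1.89). Ccl2, the main ligand of Ccr2, was at 155 CPM in control and 675 in FA (4.35, 3.05 to 6.41; 8.34 in marker-free cells). Ccl2 was present in 6 of 31 control and 44.6% of FA monocytes (3.23% and 24.0% after thinning), and stood at 70.6 and 1061 CPM in macrophages. The other Ccr2 ligands Ccl7 and Ccl12 had 0 control UMIs and 859 and 867 in FA, at least 12.3-fold and 12.4-fold higher. They were detected in 11.7% and 10.7% of FA monocytes, while FA macrophages stood at 991 and 1399 CPM against 184 and 186 in FA monocytes and 59.4 and 106 in FA B cells.

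Cxcl2 was at 221 and 2326 CPM (10.6, 7.85 to 14.5), but its 44 control UMIs came from 2 cells, 29 of them from 1. It was detected in 51.2% of FA monocytes (38.6% after thinning), 75.6% of FA macrophages and 7.6% of FA B cells. Ccl4, another chemokine, was at 717 and 2264 CPM (3.16, 2.68 to 3.75), and 1 control cell held 105 of 143 UMIs. Ccl3 was at 341 and 611 CPM (1.79, 1.41 to 2.31), with 37 of 68 control UMIs in 1 cell and a ratio of 1.19 in marker-free cells. Ccl6 was at 722 and 510 CPM, a ratio of 0.707 that did not reach the limit, and of 0.583 in marker-free and 0.619 in Lyz2-positive cells.

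Of 17 measured cytokines and growth factors 5 were higher and 0 lower (median log2 ratio 0.95), where 5.28% and 10.4% of all genes were. In marker-free cells 4 and 0 were (1.06). Il1b, the interleukin 1 beta precursor, was at 862 and 2385 CPM (2.77, 2.38 to 3.24), with ratios of 2.21 in marker-free and 2.39 in Lyz2-positive cells. Il1b was found in 15 of 31 control and 73.0% of FA monocytes (32.3% and 57.3% after thinning). Il1rn, its receptor antagonist, was at 25.1 and 63.4 CPM (2.53, 1.07 to 7.84), with its 5 control UMIs in 1 cell. Osm, oncostatin M, a cytokine of the interleukin 6 family, had 4 and 1580 UMIs (16.9, 6.6 to 62.2) and stood at 8.20 and 70.7 CPM in macrophages. Tnf was at 15.0 and 35.4 CPM (2.36, 0.792 to 11.5) and Tgfb1 at 326 and 288 CPM (0.884, 0.689 to 1.153), and neither reached the limit.

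Inflammasomes are the complexes in which caspase 1 matures interleukin 1 beta and cleaves Gsdmd, whose fragment forms membrane pores. Of 21 measured genes of this list 4 were higher and 1 lower (median log2 ratio 0.47), where 5.28% and 10.4% of all genes were. In the marker-free cells 3 and 1 were, and the median was -0.10. The sensor gene Nlrp3 was at 40.1 and 131 CPM (3.27, 1.65 to 7.61) and the adaptor gene Pycard at 191 and 372 CPM (1.95, 1.42 to 2.77). Casp1 was at 80.2 and 82.2 CPM (1.03, 0.623 to 1.81), and Casp4, which senses cytosolic lipopolysaccharide, at 80.2 and 115 CPM (1.43, 0.874 to 2.53). Gsdmd itself was at 75.2 and 69.4 CPM (0.922, 0.551 to 1.67) and was detected in 14 of 31 control and 37.1% of FA monocytes. Gsdme, the gasdermin cleaved by caspase 3, was the lower gene, but with only 4 and 20 UMIs (0.214, 0.0718 to 0.862), in 4 control cells and 2.63% of FA cells. At this depth a change of Gsdmd smaller than those limits was not detectable.

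Receptors that detect microbes, damaged cells and antibody were more often higher than lower: 11 of 22 against 1, with a median log2 ratio of 0.87. Over all genes 5.28% were higher and 10.4% lower. In the marker-free cells the counts of this list were 7 and 2 and its median 0.49. Cd14, the lipopolysaccharide coreceptor, was at 95.2 and 481 CPM (5.05, 3.23 to 8.41), and it was detected in 9 of 31 control and 65.4% of FA monocytes (3.23% and 29.97% after thinning). Fcgr1, the high-affinity IgG receptor, was at 70.2 and 368 CPM (5.24, 3.12 to 9.61). Fcgr4 had 0 control UMIs and 600 in FA, at least 8.57-fold higher, in 46.5% of FA cells. Trem1, which amplifies inflammatory signals, had 3 and 528 UMIs (7.54, 2.57 to 36.7), and Clec4e, a sensor of dead cells, 8 and 719 (3.85, 1.94 to 8.95). Clec12a, an inhibitory lectin, was lower at 336 and 215 CPM (0.640, 0.4995 to 0.8325) but had ratios of 0.729 in marker-free and 0.782 in Lyz2-positive cells.

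Of 20 genes for NF-kB feedback and its targets 9 were higher and 1 lower (median log2 ratio 0.58), where 5.28% and 10.4% of all genes were. In marker-free cells 7 and 1 were (0.77). Nfkbia, the inhibitor that NF-kB itself induces, was at 326 and 1034 CPM (3.18, 2.49 to 4.12), and Rel at 75.2 and 213 CPM (2.83, 1.71 to 5.08). Nfkb1, which encodes the p50 precursor, was the lower gene, at 261 and 130 CPM (0.497, 0.374 to 0.673). The site GGNNTTTCC, a simplified NF-kB motif, was in 10 of 19 promoter windows of 16 matched genes (52.6%), against 5.82% of all windows. Immediate early and stress genes, which also respond to tissue dissociation, were higher in 11 of 23 and lower in 0 (median 0.50), and in 10 and 0 in marker-free cells (0.47). Fos was at 3163 and 7174 CPM (2.27, 2.10 to 2.46), Atf3 at 847 and 3598 (4.25, 3.65 to 4.97) and Ier3, a survival gene, at 60.2 and 697 (11.6, 6.62 to 22.4). B cells of the same libraries stood at 2640 and 4359 CPM of Fos and at 124 and 708 of Atf3, so these genes were higher in FA in another cell type too, and the part of dissociation was not tested.

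MHC class II genes, which present antigen to CD4 T cells, were the list with the lowest median among those of monocyte function. Of 10 measured genes 0 were higher and 7 lower (median log2 ratio -0.85), where 5.28% and 10.4% of all genes were. In marker-free cells 0 and 4 of 9 were (-0.70). In the Lyz2-positive cells the median was -1.49. Cd74 was at 5729 CPM in control and 2852 in FA (0.498, 0.469 to 0.529), with a ratio of 0.485 in marker-free and 0.328 in Lyz2-positive cells. It was detected in 21 of 31 control and 47.4% of FA monocytes (58.1% and 34.4% after thinning), and 1 control cell held 275 of 1143 UMIs. H2-Ab1, a beta chain, was at 1724 and 1064 CPM (0.617, 0.553 to 0.691) with 106 of 344 control UMIs in 1 cell, and its ratio of 0.711 in marker-free cells did not reach the limit. H2-DMa, which loads peptides, was at 486 and 230 CPM (0.472, 0.383 to 0.587). Macrophages stood at 14440 and 1686 CPM of H2-Ab1.

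Genes that monocytes take up as they become macrophages were partly higher. Of 14 measured macrophage markers outside the selection, 7 were higher and 0 lower (median log2 ratio 1.25), where 5.28% and 10.4% of all genes were. In marker-free cells 4 and 1 were (0.80). Ms4a7 had 2 and 427 UMIs (9.15, 2.52 to 75.8), yet its 91.7 CPM in FA monocytes stood below the 574 CPM of FA macrophages. Apoe, a lipid carrier, was at 2105 and 3841 CPM (1.82, 1.66 to 2.02), with 93 of 420 control UMIs in 1 cell and a ratio of 1.30 in marker-free cells. Of 21 genes for macrophage differentiation and lysosomes 8 were higher and 2 lower (median 0.46), and 6 and 1 in marker-free cells (1.06). Plin2, the lipid droplet coat, was at 201 and 656 CPM (3.27, 2.40 to 4.59), and Psap, the precursor of the saposins, was lower at 4140 and 2263 (0.547, 0.509 to 0.588).

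Of 21 receptors and adhesion molecules for trafficking 5 were higher and 3 lower (median log2 ratio 0.03), where 5.28% and 10.4% of all genes were. In marker-free cells 7 and 5 were (-0.15). Ccr1, a receptor for Ccl3, was at 45.1 and 178 CPM (3.94, 2.06 to 8.64). C5ar1, the receptor for the complement fragment C5a, had 1 and 456 UMIs (19.5, 3.49 to 773). Selplg, the ligand of P-selectin, was lower at 356 and 213 CPM (0.599, 0.470 to 0.773), and so was Itgal, the alpha chain of the integrin LFA-1, at 221 and 137 (0.621, 0.457 to 0.864).

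The monocyte genes outside the selection did not move as 1 group: 8 of 20 were higher and 3 lower, where 5.28% and 10.4% of all genes were. Their median log2 ratio was 0.07. In marker-free cells 6 were higher and 7 lower (-0.047). Plac8 (chr5:100551589-100572253) was at 2692 CPM in control and 5288 in FA (1.96, 1.80 to 2.14; 1.65 in marker-free cells). The share of cells with Plac8 was 74.2% and 89.2% after thinning. Macrophages stood at 14.6 and 167 CPM of it. Lyz2 was lower, at 28080 and 18130 CPM (0.646, 0.628 to 0.663), with ratios of 0.504 in marker-free and 0.579 in Lyz2-positive cells. The detoxifying enzyme gene Mgst1 was also lower, at 351 and 200 CPM (0.570, 0.447 to 0.738). S100a4, S100a6 and Ms4a6c had ratios of 0.946, 1.08 and 1.13, inside the limit. Of 14 patrolling monocyte markers 1 was higher and 6 lower (median log2 ratio -0.54), among them the transcription factor gene Pou2f2 at 471 and 267 CPM (0.566, 0.459 to 0.706).

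The remaining lists were smaller or concerned other cell types. Their counts stand beside 5.28% higher and 10.4% lower over all genes, and those in marker-free cells beside 3.92% and 6.63%. Of 13 coagulation and matrix genes 3 were higher and 1 lower (median log2 ratio 0.39; 2 and 2 in marker-free cells, 0.33), among them F10, coagulation factor X, at 85.2 and 193 CPM (2.27, 1.41 to 3.91; 1.34 in marker-free cells). Of 14 genes of repair and lipid-handling macrophages 3 were higher and 2 lower (median 0.51; 4 and 0 in marker-free cells, -0.13). Of 13 mitochondrially encoded genes 2 were higher and 5 lower (median -0.65; 1 and 7 in marker-free cells, -1.14). Few cells can carry these sums: mt-Cytb was found in 6 of 31 control cells, with 159 of 399 UMIs in 1. The richest 10% of cells held 98.2% of its UMIs in control and 98.6% in FA. The median mitochondrial share per cell was 0.445% in control and 0.948% in FA, with single cells up to 11% and 24.9%. Markers of neutrophils had 3 higher and 1 lower of 9 (median 0.59), and their summed level was 301 CPM in control and 566 in FA monocytes. Markers of conventional dendritic cells had 1 higher and 4 lower of 8 (-0.99), of NK and T cells 0 and 3 of 6 (-1.99), of B and plasma cells 0 and 4 of 6 (-1.25) and of tubule 1 and 3 of 6 (-0.87). Mzb1 of plasma cells had no UMI in any of the 715 cells, and the part of the other markers in the results above was not tested beyond the 2 subsets.

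**Figure D4:**
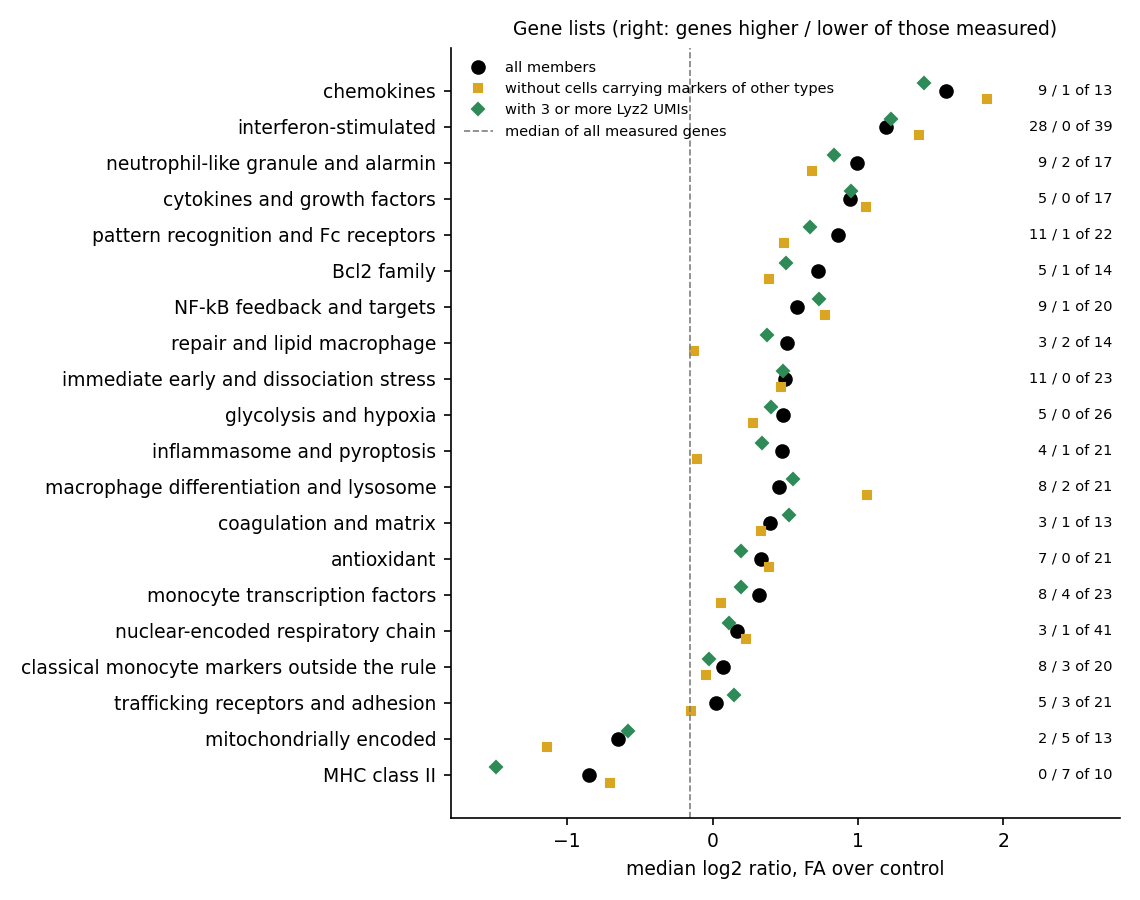
Median log2 ratio, FA over control, of 20 gene lists in all selected cells and in the 2 subsets, with the number of genes higher and lower by the counting interval at the right. Chemokines (1.61) and interferon-stimulated genes (1.19) stand at the top and MHC class II (-0.85) at the bottom, and the dashed line is the median of all genes, -0.15.

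Of 26 glycolysis and hypoxia genes 5 were higher and 0 lower (median log2 ratio 0.48). In marker-free cells 5 and 0 were (0.28). Over all genes 5.28% were higher and 10.4% lower, which stands beside each list count over all selected cells in this paragraph. The counts in marker-free cells stand beside 3.92% and 6.63%. Ldha, lactate dehydrogenase A, was at 236 and 370 CPM (1.57, 1.18 to 2.15), with a ratio of 1.32 in Lyz2-positive cells. Gapdh was at 767 and 1056 CPM (1.38, 1.17 to 1.63), with a ratio of 1.52 in marker-free cells. ACGTG, the core of the hypoxia response element, was in 22 of 37 promoter windows of 26 matched genes (59.5%), against 19.6% of all windows. Of 41 nuclear-encoded respiratory chain genes 3 were higher and 1 lower (median 0.17), and 4 and 1 in marker-free cells (0.23). Of 21 antioxidant genes 7 were higher and 0 lower (median 0.33; 5 and 1 in marker-free cells, 0.39): Hmox1, which degrades haem, was at 40.1 and 158 CPM (3.94, 1.99 to 9.15) and the ferritin heavy chain gene Fth1 at 3764 and 6746 (1.79, 1.67 to 1.93). The metallothionein gene Mt1, chosen after its values were seen, had 2 and 2036 UMIs (43.6, 12.1 to 360) and was detected in 2 of 31 control and 51.9% of FA monocytes, while macrophages stood at 262 and 509 CPM and 33.2% of FA proximal tubule cells held it. Of 14 Bcl2 family genes 5 were higher and 1 lower, but 2 and 0 in marker-free cells. Bcl2a1b, an antiapoptotic gene with near-identical copies and so uncertain, had 2 and 615 UMIs (13.2, 3.63 to 109), and the abundant Mcl1 was at 1002 and 1182 CPM (1.18, 1.02 to 1.37).

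Among 23 monocyte transcription factors 8 were higher and 4 lower (median log2 ratio 0.32), where 5.28% and 10.4% of all genes were. In marker-free cells 4 and 3 of 22 were (0.062). Nfe2l2, the oxidative stress factor, was at 180 and 480 CPM (2.66, 1.92 to 3.81), Runx1 at 110 and 221 (2.01, 1.32 to 3.22) and Cebpb at 857 and 1529 (1.78, 1.53 to 2.09; 1.27 in marker-free cells). Irf5 was lower at 286 and 172 CPM (0.604, 0.461 to 0.804).

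Some of the lowest ratios rested on the cells with few Lyz2 UMIs. Siglech had 61 UMIs in 5 control cells and 95 in 17 FA cells, that is 306 and 20.4 CPM (0.0667, 0.0479 to 0.0936), and it had 0 UMIs in the Lyz2-positive control cells. Tcf4, the factor that sets up plasmacytoid dendritic cells, had a ratio of 0.211 (0.171 to 0.262), but of 0.966 in marker-free and 0.890 in Lyz2-positive cells. Irf8, which both dendritic cells and monocytes use, was at 1018 and 242 CPM (0.237, 0.204 to 0.277), with ratios of 1.09 and 0.443 in those subsets. Bcl11a was lower in all 3 sets, at 0.106, 0.266 and 0.171. St8sia4, an enzyme that adds polysialic acid, was at 316 and 87.0 CPM (0.275, 0.211 to 0.365; 0.377 and 0.312 in the subsets). The plasmacytoid dendritic list had a median log2 ratio of -3.49 in all cells and 0.40 in Lyz2-positive cells. The endothelial list had a median of -3.36 over 8 genes, with a summed level of 536 CPM in control and 55.0 in FA monocytes, and of -0.041 in Lyz2-positive cells. The marker-free cells were chosen with genes of both lists, so they say nothing about these.

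Spp1, which encodes osteopontin, was detected in most FA cells of several types. Spp1 had 3 UMIs in control and 7608 in FA monocytes and was detected in 59.6% of FA monocytes. It was also detected in 87.1% of FA B cells and 99.5% of FA proximal tubule cells, so its share in monocytes is at or below the background and is not read as expression.

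Within the FA library the monocytes differed among themselves along Ly6c2. The 684 cells were ordered by Ly6c2 UMIs per 10000 and cut into 3 groups of 228, so that Ly6c2 itself says nothing here. Because 37, 15 and 9 cells with few Lyz2 UMIs lay in the lowest, middle and highest group, the values are given for the 623 Lyz2-positive cells in groups of 208, 208 and 207, with median UMIs per cell of 6455, 6230.5 and 6642. From the lowest to the highest group, Lyz2 stood at 13126, 20140 and 26871 CPM, Plac8 at 4028, 5753 and 7044, and Hp at 955, 1682 and 2258. Saa3 followed the same order at 434, 656 and 863 CPM. The order was opposite for Cd74, at 3375, 1635 and 816 CPM, and for H2-Ab1, at 1262, 517 and 207. The macrophage gene Ms4a7 was at 118, 88.8 and 55.6 CPM. Il1b, at 3078, 2413 and 1980 CPM, and Cxcl2, at 3298, 2410 and 1844, were also highest in the Ly6c2-poor cells.

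Genes that differed most between the libraries did not all lie on this axis. Isg15 stood at 550, 576 and 597 CPM and Thbs1 at 647, 638 and 587, with intervals that overlapped between neighbouring groups. These are cells of 1 library, which are not replicates of a condition, and the values describe that library.

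**Figure D5:**
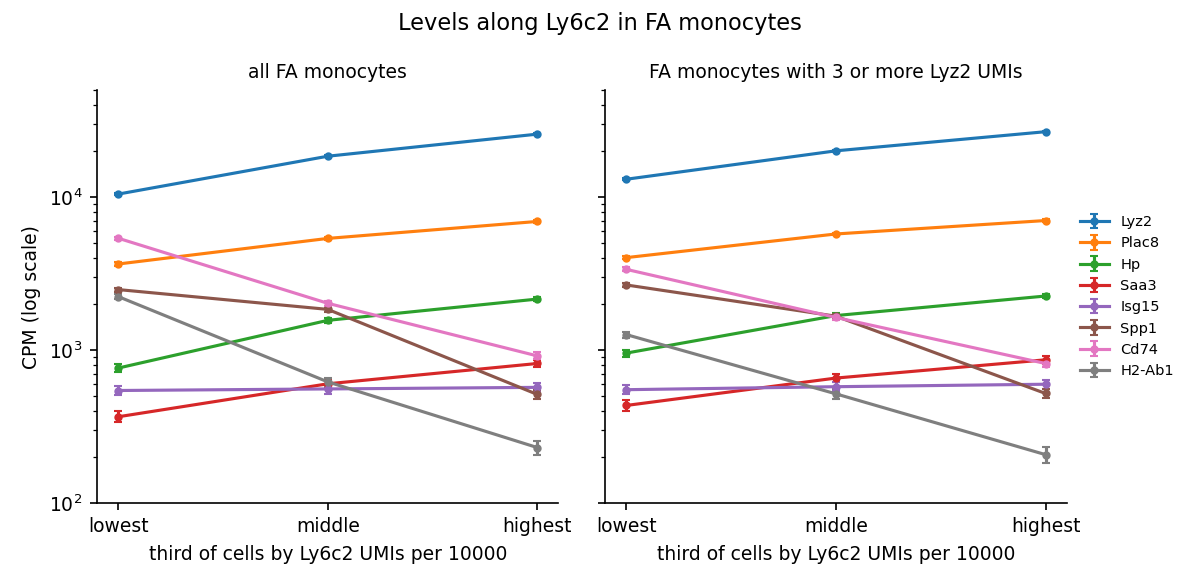
CPM on a log axis of 8 genes in FA monocytes cut into 3 groups by Ly6c2 UMIs per 10000, for all cells (left) and for cells with 3 or more Lyz2 UMIs (right), with Poisson intervals. Lyz2, Plac8, Hp and Saa3 are highest where Ly6c2 is highest, and Cd74, H2-Ab1 and Spp1 are lowest there. Isg15 stays between 550 and 597 at the right. The part of free RNA in the Spp1 level was not tested.

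Detection in the same cell showed the same contrast after each of the 623 cells was thinned to 1000 UMIs. Of the 117 cells with a Saa3 UMI, 84.6% (76.8 to 90.6) also had Hp, against 56.9% (52.5 to 61.3) of the 506 without. Cd74 was found in 9.40% and 34.6% of these cells, and H2-Ab1 in 5.98% and 20.6%. Of the 186 cells with a Cd74 UMI, 28% (21.6 to 35.0) had Hp, against 76.7% (72.4 to 80.5) of the 437 without. Of the 35 cells with a Ms4a7 UMI, 14.3% (4.81 to 30.3) had Hp and 62.9% had Cd74, against 65.0% and 27.9% of the others. The Saa3 and Hp cells were thus mostly not the MHC class II cells.

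Il1b and Isg15 did not divide by Saa3, although the Il1b level above was highest in the Ly6c2-poor cells. Il1b was found in 64.1% of cells with Saa3 and 58.3% of those without, and Isg15 in 34.2% and 35.4%, with overlapping intervals. The pairs that follow do not involve Saa3, Hp or MHC class II. Thbs1 was found in 35.9% (31.1 to 41.1) of the 370 cells with Il1b and in 18.2% (13.6 to 23.5) of the 253 without. Ifit3 was found in 18.5% (12 to 26.6) of cells with Slfn4 and in 7.34% (5.22 to 9.98) of the others. In the 45 cells with Cxcl10, Fcgr4 was found in 28.9% (16.4 to 44.3) against 12.5% (9.88 to 15.4) of the others.

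Macrophages (674 control and 878 FA cells) were compared on the same genes. For Hp the ratio of FA over control was 3.20 in classical monocytes and 1.57 (0.848 to 3.04) in macrophages, where Hp stood at 3.65 and 5.73 CPM. For Thbs1 the ratios were 28.4 and 13.2 (8.23 to 22.6). For Cd14 they were 5.05 and 0.948 (0.909 to 0.989), and for Wfdc17 1.89 and 0.183 (0.174 to 0.193). These genes are examples with a larger ratio in classical monocytes than in macrophages, and other genes went the other way. The macrophage ratios of Cxcl2 (22.8, 21.4 to 24.3), Ccl2 (15.0, 13.4 to 16.9) and Irf7 (6.48, 5.70 to 7.39) were above the monocyte ratios given earlier. The cells picked by Ace and Treml4 as patrolling monocytes (44 control, 46 FA) are a weak comparison. Tubule genes summed to 23526 CPM in the control and 11520 in the FA cells, and Lyz2 was detected in 20 of 44 and 35 of 46. Their ratios were 6.27 (4.14 to 9.74) for Hp, 6.32 (3.64 to 11.6) for Cd14 and 4.26 (3.31 to 5.51) for Wfdc17. For Thbs1 their ratio was 4.86 (2.90 to 8.44). Higher levels of these 4 genes in FA were thus not particular to classical monocytes. With 1 library per group the difference between the cell types was not tested.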

How the data were processed

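Single-cell RNA libraries of kidney, 1 control and 1 FA, were read from 1 table of UMI counts that the authors deposited (21855 gene names by 28678 barcodes). Per the submitters' processing notes, Seurat and the mm10 build were used, and the sources used here name no aligner or counter and do not say whether doublets had been removed. The barcode prefix beginning with C was taken as control and that beginning with FA as the FA library. Counts of 255 pairs of older and current names of 1 gene were summed through RefSeq synonyms, which left 21600 genes.

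The cells, gene lists and alternatives were chosen with earlier results of these data known. UMIs were summed over the selected cells of each library and divided by their total (CPM). Ratios carry exact conditional binomial intervals, shares exact Clopper-Pearson intervals and levels exact Poisson intervals, all at 95% and for counting error only. A gene with 0 UMIs in a library was set to 3 UMIs per library sum and its ratio given as a bound. Genes were measured at 20 or more UMIs over both libraries. The named genes were the 12 highest and 12 lowest ratios of 771 eligible genes (100 CPM and 50 UMIs or more in the higher library, found in both libraries in any cell, and no lower there than over all kept cells), the selecting genes, the given markers, the 4 most abundant genes of each list, and members of the lists as examples, some chosen after their values were seen. Some genes are not reported here. Shares of cells were also taken after thinning each cell to 1000 UMIs. Patrolling monocytes (Ace and Treml4 together at 2 or more UMIs, Ly6c2 below 2), macrophages (C1q at 10 or more), B cells (Cd79a at 2 or more with Ms4a1 or a further B cell gene) and proximal tubule cells were chosen by markers in the same way.

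Doublets were kept in the main values. Likely doublets (by simulated pairs, 2 per cell, 2000 genes, 30 components, 0.8% per 1000 barcodes) numbered 2 of 31 control and 98 of 684 FA monocytes and were left out in 1 alternative. Other alternatives were a Ly6c2 minimum of 3, a C1q limit of 3, a mitochondrial limit of 20%, exclusion of cells with markers of other types, thinning, the mean of each cell's own CPM, totals without mitochondrial genes, centring on the median gene, unjoined names, and gene filters of 50 UMIs and of 1 UMI in each library. After the data were seen, a wider marker exclusion, a Lyz2 minimum of 3, a filter of 250 UMIs and the interval rule were added. The ratio and interval were tested on simulated counts. Promoter windows were from RefSeq on GRCm38.p6. Analyses used Python 3.11.15, numpy 2.4.6, scipy 1.17.1, scikit-learn 1.9.0, matplotlib 3.10.9 and Biopython 1.88.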

Additional observations from a re-analysis of the deposited data

How the results depend on the processing

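With 31 control cells, depth limits every ratio: a gene with fewer than about 20 control UMIs has a wide interval, and a change of a rare gene was not detectable. The share of monocytes in control (0.492%) became 0.334% with 3 or more Ly6c2 UMIs, 0.302% without cells carrying markers of other types, 0.254% with the wider set of markers and 0.149% after thinning to 1000 UMIs. The share in FA (4.30%) became 3.87%, 3.85%, 3.67% and 1.80% in the same order, 4.94% with a mitochondrial limit of 20% and 3.91% with 3 or more Lyz2 UMIs. It was above the control share in each. The count of genes 1.5-fold higher (1607) and lower (2672) became 274 and 432 after thinning, which left 9 control and 253 FA cells, 532 and 390 with 250 or more UMIs, and 511 and 1004 with the interval rule. The count of lower genes became 1760 with 50 or more UMIs and 4208 with 1 UMI in each library.

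Some log2 ratios changed sign. With 3 or more Ly6c2 UMIs these were the tubule list (1.70), Gpx3 (1.73), Miox (1.70) and Slc34a1 (0.90). Without likely doublets they were Flt1 (0.59) and Plvap (0.90). Without cells carrying markers of other types they were the endothelium list (0.28), Flt1 (1.01), Pecam1 (0.28) and Plvap (0.42), and with the wider set the plasmacytoid dendritic list (0.067), Gpx3 (0.46) and Irf8 (0.13). These exclusions used genes of both lists. With 3 or more Lyz2 UMIs they were the plasmacytoid dendritic list (0.40), the NK and T list (0.13), Ccl5 (0.16), Flt1 (0.45), Il7r (0.10), Pecam1 (0.30) and Plvap (0.66). After thinning they were the lists of neutrophil (-1.01), macrophage (-0.98), conventional dendritic (0.12), tubule (0.69) and mitochondrially encoded genes (1.22), and Ccl3 (-1.03), Myl12b (0.14), mt-Cytb (2.89), mt-Nd1 (1.13) and mt-Nd4 (0.99). With 1 UMI in each library the neutrophil list was at -0.15. The cause was not tested beyond the smaller number of cells in each. The lists of interferon-stimulated genes, chemokines and MHC class II changed sign under none of these, though after thinning their medians were 0.69, 0.54 and -2.09. No paired analysis was possible because each group has 1 library.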
